A study of Homo sapiens with 6 samples.

Results

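The 36 genes described here encode the working parts of the lysosome and the transcription factors that control them. They were listed by symbol from their known functions, with earlier results of these libraries known. They are 36 of 57861 genes with a usable value in all 6 libraries. Of them, 3 are factors of the MiT/TFE family (TFEB, TFE3, MITF), 6 are lysosomal membrane proteins and 1 is a lumenal sterol carrier. The others are 3 proton pump subunits, 8 proteases, 6 glycosidases, 3 sulfatases, 4 lipid hydrolases and 2 cofactor precursors. RNA sequencing was carried out on MOLP-8 cells, an established line from a human multiple myeloma, in 3 control libraries and 3 LIN28B KO libraries. The guide was scrambled in control cells and directed at LIN28B in KO cells, and both were delivered by lentiCRISPRv2, a lentiviral vector that encodes Cas9, a guide and puromycin resistance. Cells of both groups were grown in RPMI with serum under puromycin selection. LIN28B binds the precursors of let-7 microRNAs and keeps them from maturing, and the comparison asks which transcripts differ when it is targeted. The labels do not say whether the KO cells were a pool or a clone, nor whether each library had its own culture. The p-values therefore measure the spread between these libraries only, which may be technical.

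Lysosomes are acidic organelles in which proton pumps drive the luminal pH down and soluble hydrolases degrade proteins, glycans, lipids and sulfated sugars delivered by endocytosis and autophagy. TFEB, TFE3 and MITF are basic helix-loop-helix factors held in the cytoplasm by mTORC1 phosphorylation when nutrients are plentiful. On starvation or lysosomal stress they enter the nucleus and bind a palindromic E-box, the CLEAR element, in the promoters of many lysosomal and autophagy genes. Their activity is set largely by where the proteins are in the cell, which RNA levels do not measure. Plasma cells and myeloma cells secrete large amounts of protein and depend on both proteasomal and lysosomal degradation.

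The site these factors are known to bind was searched for in the promoter windows of the RefSeq table (GRCh38.p14), which run from 250 bases before to 50 bases after a gene's start. Of the 36 members, 26 were in that table, with 40 windows. The E-box core CACGTG was present, on either strand, in a window of 8 of the 26 members (30.8%), against 8.77% of all genes in the table and 13.0% of protein-coding genes tested for expression. The longer form TCACGTGA, which contains the core, was present in 5 members (19.2%), against 1.18% and 2.44%. The full palindrome, the longer form with a further G before and C after it, was in 2 members (7.69%), against 0.421% and 0.981%. A match is a description of the letters in the window, not evidence of binding. The longest match of each of the 8 members is shown here to give the letters that were counted. Each run of 30 bases is written 5′ to 3′ on the gene's strand, with the match in capitals.
GAA: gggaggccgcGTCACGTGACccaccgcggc
MCOLN1: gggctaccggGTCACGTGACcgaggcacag
LAMP1: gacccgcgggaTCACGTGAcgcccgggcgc
ATP6V0D1: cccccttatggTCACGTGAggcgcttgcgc
CTSA: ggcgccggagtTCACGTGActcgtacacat
NEU1: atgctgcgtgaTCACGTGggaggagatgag
CTSD: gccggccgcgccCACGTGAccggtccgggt
CD63: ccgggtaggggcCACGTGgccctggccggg
The GAA run lies at chr17:80101493-80101522 on the plus strand, its match starting 78 bases before the gene's start, and a second full palindrome follows at chr17:80101538-80101567. The MCOLN1 run lies at chr19:7522598-7522627 on the plus strand. The LAMP1 window held 6 copies of the core, 2 of them in the 8-base form, and the run shown is chr13:113297199-113297228. The runs of ATP6V0D1 (chr16:67481199-67481228), NEU1 (chr6:31862930-31862959), CTSD (chr11:1763957-1763986) and CD63 (chr12:55729172-55729201) lie on the minus strand, and that of CTSA (chr20:45891298-45891327) on the plus strand. GAA, MCOLN1, LAMP1, ATP6V0D1, CTSA, NEU1, CTSD and CD63 encode, in that order, acid alpha-glucosidase, a calcium channel, a membrane glycoprotein, a pump subunit, protective protein/cathepsin A, a sialidase, cathepsin D and a tetraspanin.

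Since LIN28B acts on let-7, the match to the let-7 seed was also searched for in the longest 3′ UTR of each member in GENCODE 29 (GRCh38). All 9 mature microRNAs of the family in the RefSeq table share the seed GAGGUAG at bases 2 to 8, shown in capitals in let-7a, beside the 3 member sites with the matching CTACCTC in capitals.
hsa-let-7a-5p: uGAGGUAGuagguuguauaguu
CTSC: gtcctggtgacCTACCTCcaaggcagctg
TPP1: gccccctgtgcCTACCTCtagcattgtaa
IDS: cttgcctatccCTACCTCcctcctactag
ASAH1 also holds the match. CTACCTC was thus present in 4 of 36 members (11.1%), near the 10.98% of 11311 tested protein-coding genes. None of the 4 matches was followed by A, the base that extends the site, whereas 4.37% of tested genes held CTACCTCA. By this search the members as a list held let-7 seed matches about as often as other genes.

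The values are FPKM, in which fragment numbers are divided by transcript length and by the size of the library. The files hold no counts, and depths of 6310855 to 8368315 fragment equivalents in controls and 4808210 to 5596934 in KO libraries were estimated from the deposited bounds. LIN28B itself was 23.3, 24.3 and 25.5 FPKM in control cells, compared with 8.41, 8.17 and 5.84 FPKM in KO 1, KO 2 and KO 3. It fell by 1.66 on the log2 scale (SE 0.17, limma adjusted p = 0.0207), but leaving out any 1 library except KO 3 gave an adjusted p between 0.0675 and 0.185, and testing without the filter on low values gave 0.142. The library LIN28B KO 3 stands apart: over 15803 tested genes the log2 ratio to the mean of the controls had a median of -0.35 in it, against -0.01 in KO 1 and in KO 2, and 17676 genes reached 1 FPKM in it, against 15356 to 15932 in the other 5. Results are therefore given with and without KO 3, and after cyclic loess, a scaling that removes level-dependent shifts between libraries. All 10 plasma cell markers on the list used were above 1 FPKM in every library, XBP1 at 669 FPKM or more. Of 12 myeloid markers, which would mark macrophages with abundant lysosomes, 1 reached a mean of 1 FPKM (CD163) and AIF1 was listed at 0 in all 6 libraries. The myeloid list summed to 2.36 to 4.01 FPKM in controls and 5.63 to 11.4 FPKM in KO libraries. Its highest sum was in KO 3, and its part in the results was not tested. The B cell, T/NK and stromal lists also had their highest sums in KO 3, at 8.02, 6.01 and 14.2 FPKM. Their control sums were 1.48 to 1.87, 4.29 to 5.14 and 3.10 to 5.89 FPKM. The epithelial list summed to 121 to 133 FPKM in controls and 77.7 to 103 FPKM in KO libraries. Its lowest sum, and that of the plasma list, was in KO 3. In bulk RNA, fewer cells of a type and less RNA per cell cannot be told apart.

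All 36 members were detected and passed the filter of 1 FPKM in at least 3 libraries. Their control means ran from 11.6 FPKM for CTSH, a lysosomal aminopeptidase, to 418 FPKM for CD63, a tetraspanin of late endosomes, with a median of 42.5 FPKM. CD63 was followed by CTSB at 192 ± 10.1 FPKM (SD, n = 3), CTSC at 169 ± 4.81 FPKM, SCARB2 at 167 ± 4.22 FPKM and PSAP at 126 ± 0.694 FPKM. These 5 genes, a tetraspanin, a pair of cysteine proteases, the receptor that carries glucocerebrosidase to lysosomes and the saposin precursor, made up 42.2% of the summed FPKM of all members. In total 9 members were above 100 FPKM and 8 under 20 FPKM, the latter including all 3 transcription factors. Of the 35 pairs of neighbours in the order of levels, 25 overlapped in the control libraries, so much of that order is within the spread. CD63, CTSB and SCARB2 each stood clear of the next gene below, while CTSC overlapped SCARB2. The loci of 13 members overlap another gene at a mean of at least 1 FPKM, and the strand used in counting is not given in the sources used here, so reads of such pairs cannot be told apart.

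**Figure D1:**
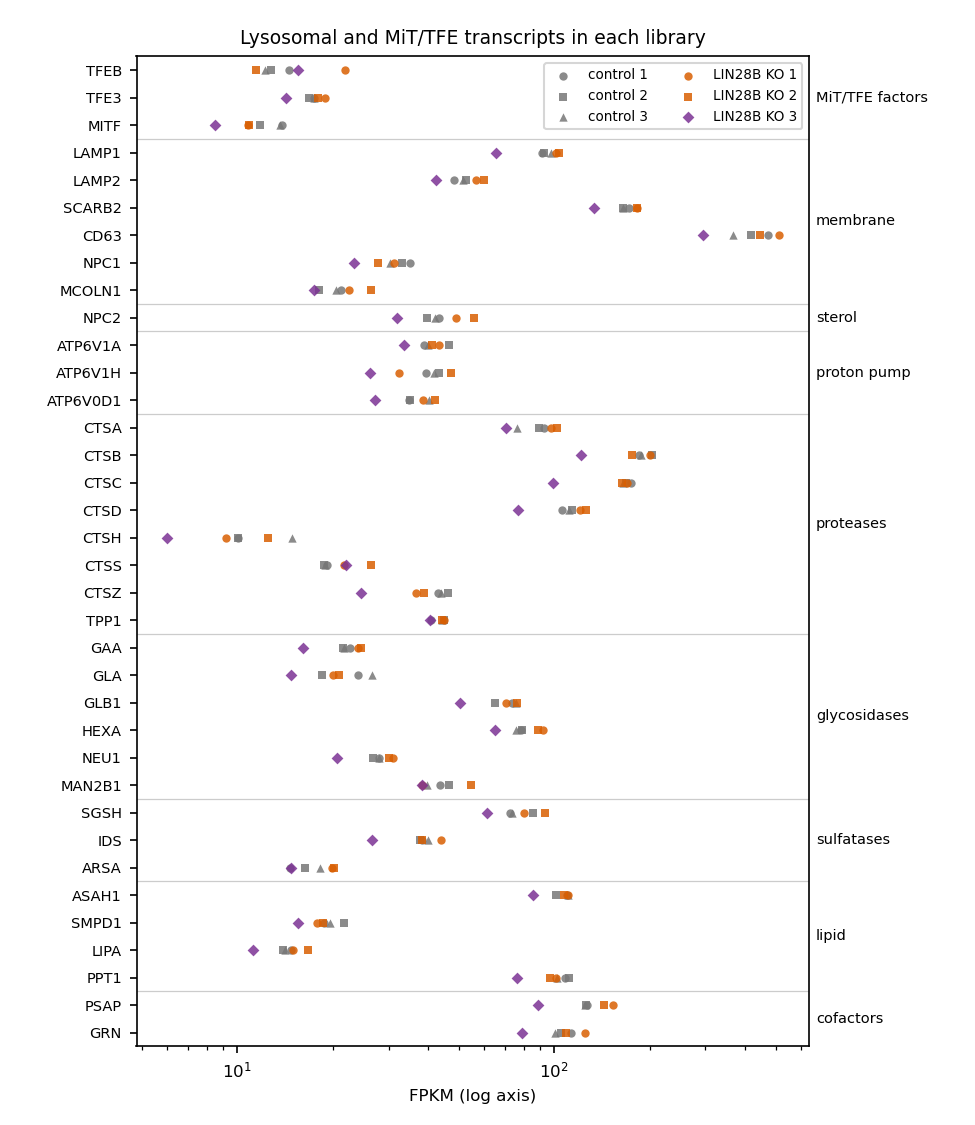
FPKM of each member (rows, ordered by role) in the 6 libraries on a log axis, with controls in grey, LIN28B KO 1 and KO 2 in orange and KO 3 in purple. CD63 was highest and CTSH lowest among the controls. The purple points of KO 3 lie below all 3 controls for 33 of 36 genes, a count for which the share of all genes was not computed. KO 3 was above the control mean on the log2 scale for 2 members, against 9.21% of 7463 tested genes in the same range of control levels.

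No member passed the test for a difference between LIN28B KO and control cells across all 6 libraries. With limma on log2(FPKM + 0.5), 0 of 36 members passed a Benjamini-Hochberg adjusted p of 0.05 in either direction, where 0.0633% of all 15803 tested genes were called higher and 0.0316% lower. The smallest adjusted p among members was 0.364, for MITF. At an unadjusted p under 0.05 there were 0 members higher and 1 lower (MITF), against 4.95% and 8.73% of tested genes. The log2 fold changes ran from -0.43 for CTSZ to 0.30 for CTSS, with a median of -0.05, beside -0.13 for all tested genes. The 95% intervals of the members had half-widths from 0.28 to 0.66 on the log2 scale, with a median of 0.42, and after cyclic loess the median half-width was 0.20. Groups did not overlap for 1 member higher (CTSS), where 7.61% of tested genes did so, and for 4 members lower (MITF, CTSZ, SMPD1, PPT1), where 20.1% did.

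The direction of the members as a list depended on KO 3. As deposited, the median of their log2 ratios to the mean of the controls was 0.09 in KO 1, 0.13 in KO 2 and -0.42 in KO 3. The 7463 tested genes in the same range of control levels had medians of -0.06, -0.06 and -0.49 in these libraries. KO 1 and KO 2 were above all 3 controls for 20 members each. KO 3 was below all 3 controls for 33 members, the exceptions being TFEB, CTSS and ARSA. The share of all genes for these counts was not computed. The log2 ratio was above 0 for 26, 25 and 2 members in KO 1, KO 2 and KO 3. Among the 7463 genes it was above 0 for 39.3%, 38.9% and 9.21%. After cyclic loess the members' medians were 0.16, 0.18 and 0.07, with those of all tested genes within 0.01 of 0. KO 3 was then above all controls for 20 members and below them for 6, counts for which the share of all genes was not computed. Its log2 ratio was above 0 for 26 members, against 48.4% of the 7463 genes.

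**Figure D2:**
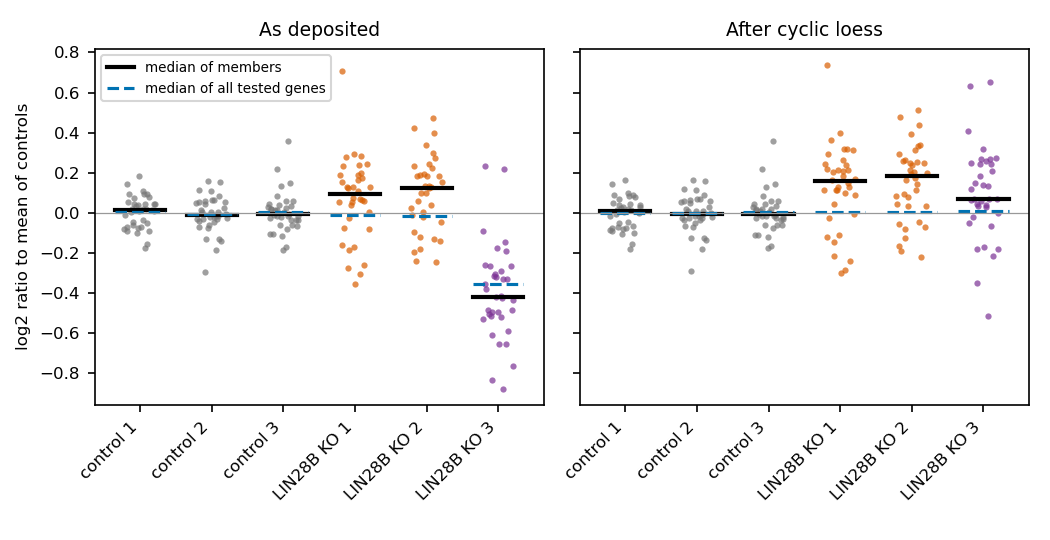
Log2 ratio of each member (points) to its mean in the 3 controls, per library, as deposited (left) and after cyclic loess (right), with solid lines at the members' median and dashed lines at the median of all 15803 tested genes. As deposited, KO 3 lies low with a members' median of -0.42; after loess the members' median is above 0 in all 3 KO libraries.

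Without KO 3, 26 of 36 members had a log2 fold change above 0, where 47% of 15336 tested genes did, and 0 members were called in either direction, where 0.15% of genes were called higher and 0.267% lower. The median of the members was then 0.13, beside -0.02 for all genes, and the smallest adjusted p was 0.103, for PSAP. At an unadjusted p under 0.05 there were 9 members higher and 1 lower, against 7.75% and 12% of genes. The 9 were LAMP2, SCARB2, MCOLN1, NPC2, CTSD, CTSS, HEXA, ARSA and PSAP, and the member lower was CTSZ. Groups did not overlap for 15 members higher, where 17% of genes did so, and 4 lower, where 22.5% did. Keeping all 6 libraries after cyclic loess gave 27 members above 0, where 50.8% of genes were, a median of 0.14, and again 0 members called, where 0.361% of genes were called higher and 0.342% lower. There the smallest adjusted p was 0.0702, for HEXA, and 11 members were higher and 2 lower at an unadjusted p under 0.05, against 9.28% and 8.83% of genes. Groups did not overlap after loess for 15 members higher and 2 lower (MITF and CTSZ), against 13.7% and 13.3% of genes. Loess without KO 3 gave 21 members higher and 2 lower with groups that did not overlap, where 18.7% and 19% of genes did so, and 0 called, where 0.235% were called in each direction. The members were proposed with earlier results of these libraries known, so these counts are a description, not a test of the list.

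**Figure D3:**
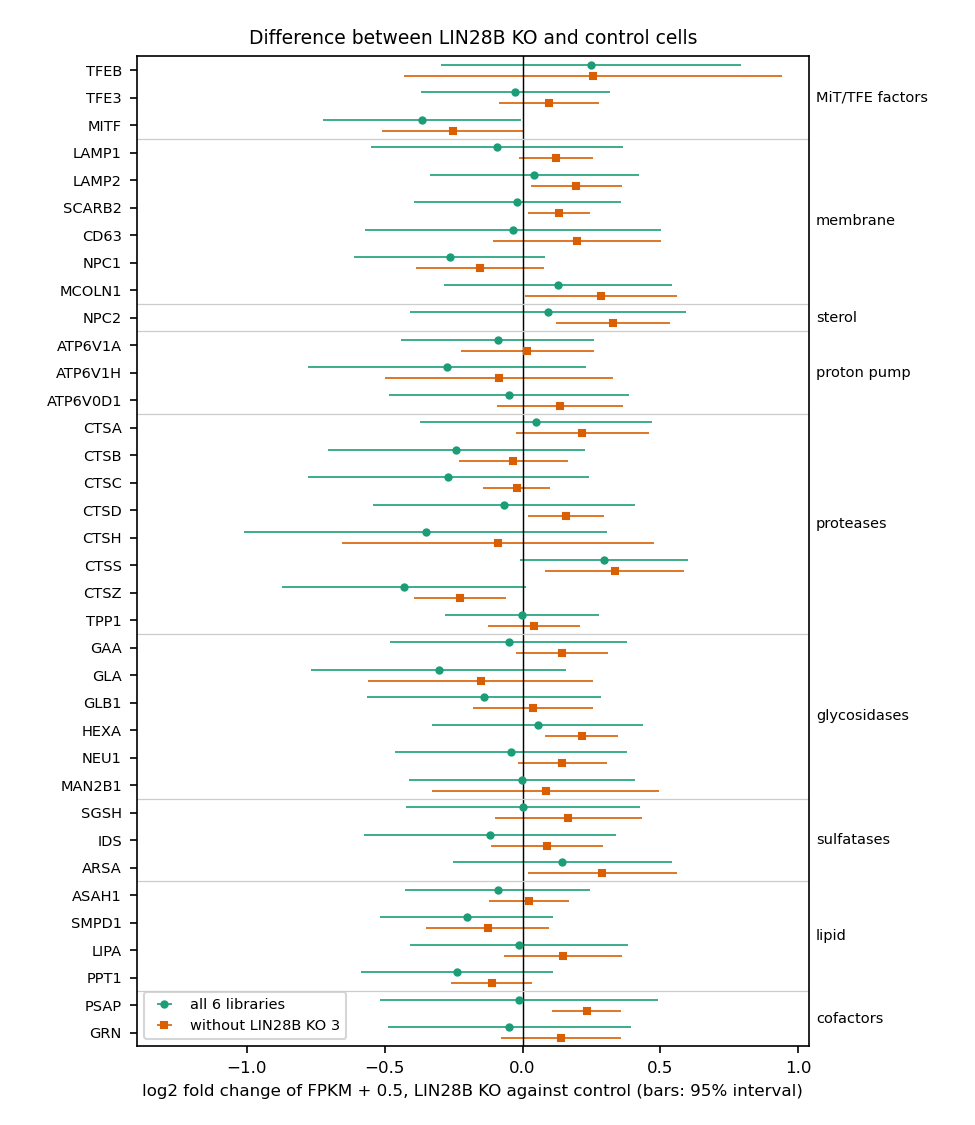
Log2 fold change of FPKM + 0.5 for each member, LIN28B KO against control, with 95% intervals, in the fit with all 6 libraries (green circles) and without KO 3 (orange squares). With all libraries the intervals include 0 for every member except MITF; without KO 3 they lie above 0 for 9 members and below 0 for 1.

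Among the transcription factors, only MITF had KO libraries all below the controls. TFEB, known as a main inducer of lysosomal genes (chr6:41651716-41703997 in GRCh37), was 14.6, 12.8 and 12.2 FPKM in control cells, compared with 21.8, 11.4 and 15.5 FPKM in KO 1, KO 2 and KO 3. KO 1 was the highest library and KO 2 the lowest, so the groups overlapped and the KO libraries enclosed the controls. The deposited bounds of TFEB ran from 3.67 to 19.2 FPKM in KO 2 and from 10.9 to 32.8 FPKM in KO 1, and relative to its value they were the widest of any member. Its log2 fold change of 0.25 had a 95% interval from -0.30 to 0.79 (limma adjusted p = 0.599).

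TFE3, which binds the same element as TFEB (chrX:48886242-48901012), was 17.5, 16.9 and 17.4 FPKM in control cells, compared with 18.9, 17.97 and 14.2 FPKM in KO 1, KO 2 and KO 3. KO 1 and KO 2 lay above all controls and KO 3 below all. Its log2 fold change was -0.03 with all libraries (adjusted p = 0.941) and 0.10 without KO 3 (adjusted p = 0.514). MITF, known as the regulator of melanocyte and osteoclast development (chr3:69788586-70017488), was 13.8, 11.8 and 13.6 FPKM in control cells, compared with 10.8, 10.9 and 8.48 FPKM in KO 1, KO 2 and KO 3. All 3 KO libraries were below all controls, as deposited and after loess. The log2 fold change of MITF was -0.37 (95% interval -0.72 to -0.01, adjusted p = 0.364), and -0.25 without KO 3 (adjusted p = 0.257). Within each library, the ratio of MITF to TFE3 was 0.790, 0.698 and 0.782 in the controls and 0.570, 0.608 and 0.596 in the KO libraries. A single scaling factor per library leaves such a ratio unchanged. The ratio of TFEB to TFE3 was 0.836, 0.758 and 0.701 in the controls and 1.15, 0.635 and 1.09 in the KO libraries, so its groups overlapped. Neither ratio was tested, and that of MITF is drawn from the same values already seen to lie below the controls. Of 8 melanocyte markers, 3 had a mean of at least 1 FPKM, GPNMB among them, and none was listed at 0 in all libraries. Of these 3, 2 had a log2 fold change above 0 and 1 below with all libraries. TYR, TYRP1 and DCT were under 0.5 FPKM in every library. The list summed to 9.23 to 10.6 FPKM in controls and 12.6 to 15.1 FPKM in KO libraries, and its part in the values of MITF was not tested. TFEC, the fourth family member, was listed at 0 in all 6 libraries.

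None of the 6 membrane proteins passed the test. NPC1, which passes cholesterol out through the lysosomal membrane, was 34.997, 33.1 and 30.4 FPKM in control cells, compared with 31.1, 27.7 and 23.3 FPKM in KO 1, KO 2 and KO 3. KO 1 lay within the control range and the other KO libraries below it, and the log2 fold change was -0.26 with an SE of 0.15 (adjusted p = 0.429). MCOLN1, the TRPML1 calcium channel whose window holds the full palindrome, was 21.3, 18.2 and 20.4 FPKM in control cells, compared with 22.5, 26.4 and 17.4 FPKM in KO 1, KO 2 and KO 3. KO 1 and KO 2 were above all controls and KO 3 below all, so the log2 fold change was 0.13 with KO 3 (adjusted p = 0.728) and 0.28 without it (adjusted p = 0.242). The glycoproteins LAMP1 and LAMP2, which line the membrane, showed the same arrangement of libraries. LAMP2 was 48.4, 52.9 and 51.5 FPKM in control cells, compared with 56.8, 60.0 and 42.4 FPKM in KO 1, KO 2 and KO 3, a log2 fold change of 0.04 with KO 3 and 0.19 without it (adjusted p = 0.907 and 0.2). Over the 6 membrane genes log2 fold changes ran from -0.26 to 0.13 with all libraries, and from -0.16 to 0.28 without KO 3, with 5 of 6 above 0.

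NPC2, the lumenal protein that hands cholesterol to NPC1, was 43.2, 39.6 and 42.1 FPKM in control cells, compared with 49.0, 55.9 and 31.9 FPKM in KO 1, KO 2 and KO 3. KO 1 and KO 2 were above every control and KO 3 below every control. Its log2 fold change was 0.09 (adjusted p = 0.84), and 0.33 without KO 3 (95% interval 0.12 to 0.54, adjusted p = 0.13). NPC1 and NPC2, partners in cholesterol export, thus had values on opposite sides of 0 in both fits, though neither passed the test.

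For the proton pump, ATP6V1A is the catalytic subunit, ATP6V1H a regulatory subunit and ATP6V0D1 part of the membrane sector. ATP6V1A was 38.8, 46.5 and 39.9 FPKM in control cells, compared with 43.2, 41.0 and 33.6 FPKM in KO 1, KO 2 and KO 3. KO 1 and KO 2 lay within the control range, and the log2 fold change of ATP6V1A was -0.09 with KO 3 and 0.02 without it (adjusted p = 0.775 and 0.94). ATP6V1H was 39.4, 43.3 and 41.6 FPKM in control cells, compared with 32.3, 47.2 and 26.2 FPKM in KO 1, KO 2 and KO 3. KO 2 was its highest library while KO 1 and KO 3 were the lowest, and the deposited bounds of KO 1 and KO 2 did not overlap. Such a gap between KO 1 and KO 2 was present for 4 members, the others being CD63, CTSB and MAN2B1. For 7 members, CD63 among them, the bounds of 2 controls lay apart. The share of all genes with such gaps was not computed. The log2 fold change of ATP6V1H was -0.27 with an SE of 0.22 (adjusted p = 0.542).

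Among the proteases, CTSS and CTSZ stood on opposite sides. CTSS, an endopeptidase that trims the invariant chain of MHC class II (chr1:150702672-150738433), was 19.2, 18.7 and 18.8 FPKM in control cells, compared with 21.8, 26.4 and 22.1 FPKM in KO 1, KO 2 and KO 3. It was the only member for which every KO library, KO 3 included, was above every control as deposited. Its mean was 23.4 ± 2.60 FPKM against 18.9 ± 0.226 FPKM (SD, n = 3), a log2 fold change of 0.30 (95% interval -0.01 to 0.60, adjusted p = 0.371). CTSZ, a carboxypeptidase (chr20:57570240-57582302), was 42.9, 46.1 and 43.8 FPKM in control cells, compared with 36.6, 38.9 and 24.6 FPKM in KO 1, KO 2 and KO 3. All KO libraries were below all controls, with KO 3 the lowest. The log2 fold change of CTSZ was -0.43 (95% interval -0.87 to 0.01, adjusted p = 0.371), and -0.23 without KO 3 (adjusted p = 0.162). Within libraries the ratio of CTSS to CTSZ was 0.446, 0.406 and 0.430 in the controls and 0.595, 0.678 and 0.896 in the KO libraries. A single scaling factor per library leaves this ratio unchanged, whereas cyclic loess does not. Its groups did not overlap, but the pair was singled out after its values were seen and no test was made of it. The other 6 proteases (CTSA, CTSB, CTSC, CTSD, CTSH and the tripeptidase TPP1) had log2 fold changes between -0.35 for CTSH and 0.05 for CTSA. TPP1, with a let-7 seed match, was 40.9, 44.8 and 44.3 FPKM in control cells, compared with 45.04, 44.1 and 40.7 FPKM in KO 1, KO 2 and KO 3. Its groups overlapped as deposited, with a log2 fold change of -0.0020 (95% interval -0.28 to 0.28), and lay apart after loess, at 0.20 (adjusted p = 0.347). CTSC, the activator of granule proteases, also with a match, was 174, 168 and 165 FPKM in control cells, compared with 170, 164 and 99.4 FPKM in KO 1, KO 2 and KO 3, so that KO 3 alone was far below the rest.

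**Figure D4:**
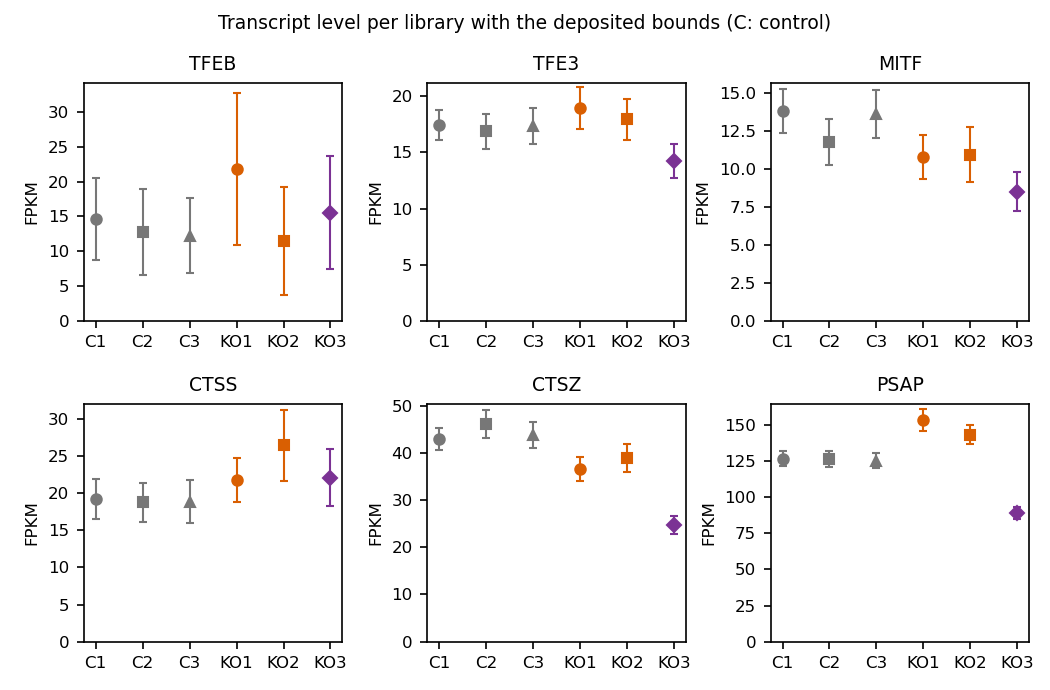
FPKM per library of the 3 MiT/TFE factors and of CTSS, CTSZ and PSAP, on linear axes from 0, with bars for the lower and upper bounds deposited with each value (C, control; KO, LIN28B KO). MITF and CTSZ are lower and CTSS higher in all 3 KO libraries; TFEB has wide bounds; PSAP is 153 and 143 FPKM in KO 1 and KO 2 and 88.7 FPKM in KO 3.

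The glycosidases cut sugars from glycoproteins and glycolipids. GLA, the alpha-galactosidase deficient in Fabry disease, was 24.0, 18.4 and 26.6 FPKM in control cells, compared with 19.97, 20.9 and 14.7 FPKM in KO 1, KO 2 and KO 3. Its controls were spread more widely than KO 1 and KO 2, and its whole locus lies within the readthrough gene RPL36A-HNRNPH2, listed at a mean of 16.9 FPKM. GLB1, the beta-galactosidase used as a stain for senescent cells, was 73.6, 65.2 and 75.7 FPKM in control cells, compared with 70.2, 76.4 and 50.5 FPKM in KO 1, KO 2 and KO 3. The groups of both genes overlapped, with log2 fold changes of -0.30 for GLA (adjusted p = 0.474) and -0.14 for GLB1 (adjusted p = 0.708). HEXA, the hexosaminidase alpha subunit that degrades GM2 ganglioside, was 78.7, 79.2 and 75.9 FPKM in control cells, compared with 92.4, 88.6 and 64.8 FPKM in KO 1, KO 2 and KO 3. After loess all 3 KO libraries of HEXA were above all controls, with a log2 fold change of 0.28 (95% interval 0.17 to 0.40), and the adjusted p of 0.0702 missed the threshold. GAA, NEU1 and MAN2B1 (glucosidase, sialidase and mannosidase) had log2 fold changes of -0.05, -0.04 and -0.0026 with all libraries.

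Sulfatases remove sulfate from glycosaminoglycans and sulfatide. ARSA, the arylsulfatase deficient in metachromatic leukodystrophy, was 14.6, 16.4 and 18.2 FPKM in control cells, compared with 19.96, 20.2 and 14.7 FPKM in KO 1, KO 2 and KO 3. KO 1 and KO 2 were above all controls and KO 3 just above the lowest control, with a log2 fold change of 0.14 (adjusted p = 0.678) and 0.29 without KO 3 (adjusted p = 0.23). IDS, the iduronate sulfatase, was 38.2, 37.7 and 39.8 FPKM in control cells, compared with 44.0, 38.3 and 26.6 FPKM in KO 1, KO 2 and KO 3. Its groups overlapped, with a log2 fold change of -0.12 (adjusted p = 0.773). A second gene model named IDS, not counted among the members, covers 87.4% of that locus, so reads could be split between both models. The second model was 10.3, 10.2 and 6.86 FPKM in control cells (mean 9.10 FPKM). In KO 1, KO 2 and KO 3 it was 15.2, 12.7 and 5.51 FPKM (mean 11.1 FPKM). KO 1 and KO 2 were above all controls and KO 3 below all. Its log2 fold change was 0.18 with all libraries (adjusted p = 0.813) and 0.60 without KO 3 (adjusted p = 0.201). The highest value of a member without KO 3 was 0.33. SGSH, the heparan sulfatase, had a log2 fold change of 0.0015.

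None of the 4 lipid hydrolases had a log2 fold change above 0 in the fit of all libraries, where 33.5% of all genes did, and 2 of the 4 did so without KO 3 and after loess. PPT1, which removes palmitate from proteins, was 108, 111 and 102 FPKM in control cells, compared with 101, 97.1 and 76.3 FPKM in KO 1, KO 2 and KO 3. SMPD1, the acid sphingomyelinase, was 18.8, 21.6 and 19.6 FPKM in control cells, compared with 17.9, 18.7 and 15.5 FPKM in KO 1, KO 2 and KO 3. For both genes all KO libraries lay below all controls, in each case by a narrow gap between KO 1 or KO 2 and the lowest control. The log2 fold changes were -0.24 for PPT1 (adjusted p = 0.464) and -0.20 for SMPD1 (adjusted p = 0.479), and after loess they were -0.0025 and -0.04, with groups that overlapped. ASAH1, the acid ceramidase, and LIPA, the acid lipase for cholesteryl esters, had log2 fold changes of -0.09 and -0.01.

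For both cofactor precursors the sign of the log2 fold change hinged on KO 3. PSAP, cut into the saposins that present lipids to hydrolases (chr10:73576055-73611126), was 126, 126 and 125 FPKM in control cells, compared with 153, 143 and 88.7 FPKM in KO 1, KO 2 and KO 3. The controls agreed closely, KO 1 and KO 2 stood above them and KO 3 far below. Its log2 fold change was -0.01 with KO 3 (adjusted p = 0.983) and 0.23 without it (95% interval 0.11 to 0.36, adjusted p = 0.103). In an alternative added after seeing the data, without KO 3, on 11308 protein-coding genes and after loess, PSAP was the only member called higher (log2 fold change 0.31, adjusted p = 0.0467), where 1.08% of genes were called higher and 1.17% lower. In that alternative groups did not overlap for 22 members higher and 2 lower, against 19.4% and 20% of genes. GRN, the progranulin precursor that PSAP helps carry to lysosomes, was 113, 105 and 100.2 FPKM in control cells, compared with 125, 109 and 78.8 FPKM in KO 1, KO 2 and KO 3. KO 1 was above all controls, KO 2 within them and KO 3 below them, with a log2 fold change of -0.05 (adjusted p = 0.91) and 0.14 without KO 3 (adjusted p = 0.421).

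Members with and without the E-box core were set side by side. Without KO 3, all 8 members with CACGTG in a window had a log2 fold change above 0, where 47% of all tested genes did. Their values lay between 0.12 and 0.28 with a median of 0.15. Of the 18 members whose windows lacked it, 10 were above 0, with a range from -0.25 to 0.33 and a median of 0.04. The 10 members that were not in the promoter table, PSAP, HEXA, CTSS and LAMP2 among them, had a median of 0.18, with 8 above 0. With all 6 libraries the medians were -0.05 for members with the core, -0.13 for those without and -0.01 for those not in the table. Of the members with the core, only CTSA at 0.05 and MCOLN1 at 0.13 were then above 0, where 33.5% of all tested genes were. The difference between these groups of genes was not tested, and members with the core had higher control levels, with a median of 61.4 FPKM against 40.1 FPKM.

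Other genes of the pathway were read from 7 lists of 137 genes, of which 128 were tested. With all 6 libraries 0 of the 128 were called, 4 were higher and 5 lower at an unadjusted p under 0.05, against 4.95% and 8.73% of all genes, and their median log2 fold change was -0.09, beside -0.13 for all genes. Without KO 3 again 0 were called of 127 tested, where 0.15% and 0.267% of all genes were. At an unadjusted p under 0.05 there were 20 higher and 8 lower, against 7.75% and 12% of all genes, and the median was 0.05, beside -0.02. After loess with all libraries 1 of 128 was called higher, where 0.361% of all genes were: SCPEP1, a serine carboxypeptidase of lysosomes. SCPEP1 was 89.5, 97.6 and 93.3 FPKM in control cells, compared with 120, 126 and 91.5 FPKM in KO 1, KO 2 and KO 3, and its log2 fold change was 0.49 after loess with an SE of 0.06 (adjusted p = 0.0317) and 0.26 as deposited (adjusted p = 0.459). KO 3 was within the control range as deposited.

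From each list the 3 genes with the smallest p without KO 3 are given with their log2 fold change in that fit, none of which passed the adjusted threshold. Among other hydrolases these were SCPEP1 at 0.40, the fucosidase FUCA1 at 0.36 and the cysteine protease CTSO at 0.37. Among other membrane proteins they were TMEM55B, a phosphoinositide phosphatase, at -0.39, the chloride exchanger CLCN7 at 0.27 and the sialic acid exporter SLC17A5 at 0.34. Among other pump subunits ATP6V0E2 was at -0.21, ATP6V0C at -0.11 and ATP6V1G2 at 0.33. The list of mTORC1, Rag, folliculin and calcineurin genes holds the proteins that set where TFEB and TFE3 reside. Its 3 genes were FLCN, folliculin, at 0.53, PPP3CA, a calcineurin catalytic subunit, at -0.22 and DEPDC5, a subunit of the GATOR complex that restrains mTORC1, at 0.38. In the mannose-6-phosphate sorting list, which delivers hydrolases to lysosomes, they were the adaptor GGA2 at -0.31, the phosphotransferase subunit GNPTAB at 0.25 and the adaptor GGA3 at -0.24.

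From the autophagy list of 28 genes, the 3 with the smallest p were SQSTM1, CALCOCO2 and OPTN, each known as a receptor that links cargo to the autophagosome. The receptors NBR1 and TAX1BP1 on the same list had log2 fold changes of 0.18 and 0.16 without KO 3. Over the list 20 genes were above 0 and 7 below in that fit, where 47% of all genes were above 0. With all libraries 14 genes were above 0 and 13 below, where 33.5% of all genes were above 0. SQSTM1 (p62) was 109, 115 and 108 FPKM in control cells, compared with 141, 139 and 89.5 FPKM in KO 1, KO 2 and KO 3. CALCOCO2 (NDP52) was 48.5, 50.1 and 45.6 FPKM in control cells, compared with 64.2, 73.1 and 79.8 FPKM in KO 1, KO 2 and KO 3. OPTN (optineurin) was 28.0, 26.8 and 26.2 FPKM in control cells, compared with 34.4, 33.2 and 28.98 FPKM in KO 1, KO 2 and KO 3. CALCOCO2 and OPTN were above all controls in every KO library, and SQSTM1 in KO 1 and KO 2 only. Without KO 3 their log2 fold changes were 0.34, 0.51 and 0.32 in that order (adjusted p = 0.0625, 0.0681 and 0.0962). With protein-coding genes only, an alternative added after seeing the data, SQSTM1, CALCOCO2 and SCPEP1 were called higher and GGA2 lower without KO 3, where 1.08% of 11308 genes were called higher and 3.02% lower. With that limit 0 members were called, and groups did not overlap for 15 members higher and 4 lower, against 15% and 26.4% of genes.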

How the data were processed

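The deposited files hold 1 FPKM value for each gene, a pair of bounds around it and a status, per the file headers. The tools named, per the submitters' processing notes, are TopHat2, HTSeq and cutadapt, and the build is GRCh37. For versions, roles, annotation and counting strand: not given in the sources used here. Since FPKM scales each library to its own total, a shift in a library's composition moves all its genes. Rows of genes listed more than once were summed (108 genes), 25 genes with a failed estimate were left out and 57861 kept. The test was limma 3.58.1 in R 4.3.3, with its trend of variance on level and without covariates, of log2(FPKM + 0.5) in 15803 genes with at least 1 FPKM in at least 3 libraries, with Benjamini-Hochberg adjustment over all of them and a threshold of 0.05. Fold changes are on that scale, which understates the change of low genes. For 3 libraries against 3 an exact permutation test of 1 value cannot go below p = 0.1. Depth was estimated per gene as the squared ratio of 2 FPKM to the distance to the upper bound, summed over genes. This treats the bounds as counting error alone, which was not tested. Quoted bounds are the deposited ones.

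The members, pathway lists and markers were chosen with earlier results of these data known. Values in every library were given for LIN28B, the MiT/TFE factors, members called in a fit of all genes and the 2 members of each role class with the smallest p in the fit of all 6 libraries. From each pathway list up to 3 genes with the smallest p without KO 3 were named, with TFEC. LAMP2, CTSC, TPP1 and HEXA were added after their values were seen. Alternatives were other pseudocounts, filters, quantile and cyclic loess scaling, no variance trend, a replicate block, leaving out each library, and protein-coding genes only. Promoter windows and microRNAs are from RefSeq (GRCh38.p14) and UTRs from GENCODE 29; gene coordinates are those deposited (GRCh37). Scripts were tested on simulated data. No 2 libraries shared more than 0.304% of their values.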

Additional observations from a re-analysis of the deposited data

How the results depend on the processing

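No member was called in the fit of all 6 libraries or under the alternatives tried, except PSAP in 1 of the 2 added after seeing the data. Changing the pseudocount to 0.1 or 1, requiring a mean of 5 FPKM, dropping the filter or the variance trend, or adding a replicate block left every member's direction in place. LIN28B kept its direction throughout, at -1.66 with the filter dropped (adjusted p = 0.142) and at -1.66 with the replicate block (adjusted p = 0.0604), neither of them past the threshold. The replicate numbers share no stated origin. Deviations of same-numbered libraries from their group means correlated at -0.02, 0.04 and -0.03 over 15803 genes. Those of libraries with different numbers correlated between -0.08 and 0.09. Because KO 3 stands apart and pulls the mean of its group, these correlations cannot tell whether the numbers pair the libraries. The block changed no call of a member. Leaving out 1 library at a time moved LIN28B between -1.75 and -1.50, the members' median between -0.16 and 0.13, members with non-overlapping groups between 1 and 15 higher and between 4 and 7 lower. With an arm of 2 libraries, the spread was estimated from all 5.

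The direction of the members turned mainly with KO 3 and with scaling, and the cause was not tested. Members with non-overlapping groups were 10 higher and 2 lower after quantile normalization (median 0.092), where the share of all genes was not computed. They were 15 and 2 after cyclic loess (median 0.14), against 13.7% and 13.3% of all genes. After loess without KO 3 they were 21 and 2 (median 0.18), against 18.7% and 19%. Both alternatives with protein-coding genes only were chosen after seeing the data. Without loess they gave 15 members higher with non-overlapping groups, a median of 0.13 and 3 pathway genes called higher and 1 lower. With loess they gave 22 and 2 members, a median of 0.18, 1 member called (PSAP) and 3 pathway genes called higher, while loess with all libraries and genes gave 1 pathway gene.

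The log2 fold changes that changed sign are given by setting. After quantile normalization they were TFE3 0.084, LAMP1 0.087, SCARB2 0.19, CD63 0.15, ATP6V1A 0.066 and ATP6V0D1 0.10. Among hydrolases they were CTSD 0.12, TPP1 0.16, GAA 0.073, GLB1 0.024, NEU1 0.091, MAN2B1 0.16, IDS 0.031, ASAH1 0.093 and LIPA 0.091, with cofactors PSAP 0.17 and GRN 0.13. After cyclic loess they were TFE3 0.14, LAMP1 0.14, SCARB2 0.23, CD63 0.24, ATP6V1A 0.11 and ATP6V0D1 0.15. The hydrolases and cofactors were CTSB 0.014, CTSD 0.17, TPP1 0.20, GAA 0.12, GLB1 0.081, NEU1 0.14, MAN2B1 0.20, IDS 0.079, ASAH1 0.15, LIPA 0.14, PSAP 0.23 and GRN 0.19. After loess without KO 3 they were TFE3 0.13, LAMP1 0.19, SCARB2 0.22, CD63 0.30, ATP6V1A 0.075 and ATP6V0D1 0.19. The hydrolases and cofactors were CTSB 0.054, CTSC 0.063, CTSD 0.23, TPP1 0.10, GAA 0.19, GLB1 0.11, NEU1 0.19, MAN2B1 0.14, IDS 0.14, ASAH1 0.098, LIPA 0.18, PSAP 0.31 and GRN 0.22. With protein-coding genes only these became LAMP1 0.20, ATP6V1A 0.078, CTSB 0.058, CTSC 0.066, CTSD 0.24, NEU1 0.20, MAN2B1 0.15, IDS 0.15 and ASAH1 0.10, the others being equal as rounded here.

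With 1 library left out, the ranges that crossed 0 were TFE3 -0.10 to 0.095, LAMP1 -0.21 to 0.12, LAMP2 -0.053 to 0.19, SCARB2 -0.094 to 0.13, CD63 -0.20 to 0.20 and MCOLN1 -0.0074 to 0.28. For NPC2 and the pump they were NPC2 -0.072 to 0.33, ATP6V1A -0.16 to 0.017 and ATP6V0D1 -0.17 to 0.14. For proteases and glycosidases they were CTSA -0.050 to 0.22, CTSD -0.20 to 0.16, TPP1 -0.042 to 0.041, GAA -0.15 to 0.14, GLB1 -0.26 to 0.038, HEXA -0.040 to 0.21, NEU1 -0.15 to 0.14 and MAN2B1 -0.17 to 0.084. For the others they were SGSH -0.13 to 0.17, IDS -0.27 to 0.088, ASAH1 -0.15 to 0.023, LIPA -0.13 to 0.15, PSAP -0.16 to 0.23 and GRN -0.19 to 0.14. Each upper end is the value without KO 3, the same with protein-coding genes only as without that limit. TFEB had the fewest fragment equivalents of any member, at 8.69 to 24.6 a library. At a like level in control 1 (14.6 FPKM), ARSA had 501 where TFEB had 24.6. Sequencing depth is shared by both genes, and what widened the bounds of TFEB was not tested.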

Other observations

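GPNMB, a glycoprotein of melanosomes and lysosomes that the melanocyte list holds, was 6.89, 7.16 and 6.31 FPKM in control cells, compared with 11.7, 9.05 and 8.63 FPKM in LIN28B KO 1, KO 2 and KO 3. All 3 KO libraries, KO 3 included, were above all controls. SLAMF7, a surface receptor of plasma cells on the plasma list, was 51.6, 41.9 and 49.7 FPKM in control cells, compared with 92.8, 89.9 and 66.3 FPKM in KO 1, KO 2 and KO 3, again without overlap. SDC1 (CD138), the surface marker of plasma cells, was 313, 303 and 326 FPKM in control cells, compared with 281, 298 and 189 FPKM in KO 1, KO 2 and KO 3, all below the controls. None of the 3 passed the test with all libraries (limma adjusted p = 0.309, 0.235 and 0.455 in that order), and SLAMF7 passed it without KO 3 (adjusted p = 0.0482) and with all libraries after cyclic loess (log2 fold change 1.00, adjusted p = 0.0143). After loess SDC1 was at -0.054 and GPNMB at 0.61 (adjusted p = 0.612 and 0.0968), and TNFRSF17 was the other plasma marker called higher (0.53, adjusted p = 0.039). Of the 10 plasma markers, 2 were called higher after loess, where 0.361% of all genes were. With all libraries as deposited, 5 of the 10 were above 0 and 5 below. Groups did not overlap for 1 of them higher and 4 lower, against 7.61% and 20.1% of all genes. GPNMB, SLAMF7, SDC1 and TNFRSF17 were singled out after their values were seen, and no cause was tested.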
